A study of Mus musculus with 8 samples.

Results

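The genes described here are known from the projection neurons of the striatum, but not all of them from these cells alone. They are 37 genes for signalling proteins, channels, scaffolds and transcription factors of these cells, out of 37074 gene names on the array. Members were found by the gene name printed for each probe in the scanner files, and the dopamine receptors and neuropeptides of the same cells were left out by that rule. The 37 genes had 90 of the 56605 probes compared, 15 of them with a single probe. The RNA came from tissue that held the cerebral cortex together with the striatum, taken from 4 male BTBR/R mice (strain BTBRTF/ArtRbrc) and 4 male B6 mice (strain C57BL/6J), both inbred and with no treatment or introduced allele given. BTBR/R replicate 1 was 6 months old, and every other mouse was 4 months old. Each mouse had an array of its own, all 8 on 1 slide, with the B6 mice in one column of the slide and the BTBR/R mice in the other, so that column and strain cannot be told apart.

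Striatal projection neurons, also called medium spiny neurons, make up most neurons of the striatum and send its output to other parts of the basal ganglia. Dopamine, adenosine and glutamate signals meet in them on cyclic AMP, which adenylyl cyclase makes, phosphodiesterases break down and the phosphoprotein DARPP-32 relays. The neurons of the direct pathway carry the D1 receptor, and those of the indirect pathway carry the D2 receptor and the adenosine receptor encoded by Adora2a. Several transcription factors, among them Bcl11b, Foxp1, Isl1 and Sp9, are known for forming or keeping these identities.

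Values are scaled signals, the log2 processed intensity of a probe minus the 75th percentile of its array. A change is BTBR/R minus B6 on this log2 scale, with the standard error (SE) and the Benjamini-Hochberg adjusted p of limma over all probes. Each gene is given by its brightest probe, the one with the highest mean over the 8 arrays, and scaled signals of different probes are not set against each other. In bulk tissue, fewer cells of a type and less RNA per cell cannot be told apart. The scanning software marked a probe as detected where it was well above background, which held for 64.5% to 66.8% of the probes in B6 mice and 53.5% to 57.2% in BTBR/R mice, and no spot was saturated. The lowest detected scaled signal was -5.28 to -4.98 in B6 mice and -3.97 to -3.55 in BTBR/R mice. The brightest probe was detected on all 8 arrays for 35 of the 37 genes, the exceptions being Gpr52 (3 B6 arrays, no BTBR/R array) and Ikzf1 (4 B6 arrays, 1 BTBR/R array). All 9 markers of cortical excitatory neurons were also detected on all 8 arrays. Some members, such as Itpka and Foxp1, are known from the cortex too, so their detection does not by itself show striatal tissue.

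The probes are 60 bases long. Stretches of 30 bases from 3 of the members whose brightest probe passed the test, Pde10a, Scn4b and Strn, are shown first. Positions are those of mouse build mm9 in the scanner files, sequences run 5′ to 3′ along the strand given, and the files do not say in which exon a probe lies. The Pde10a probe lies at chr17:9174995-9175054 on the plus strand, that of Scn4b at chr9:44962045-44962104 (plus) and that of Strn at chr17:79053936-79053995 (minus). The bases shown are the first 30 of each probe.
Pde10a: gagaaatccaaactgttgattacaggtgca
Scn4b: ttcctatctaactttataggcaatacagtg
Strn: ggcatttatagtgctagcgtcatcatttca

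A pair of members had a brightest probe that holds a long run of a 2-base repeat, in capitals in the stretches shown next. The Oprm1 probe lies at chr10:3308332-3308391 (minus), and its bases 19 to 48 are shown. The Eya1 probe lies at chr1:14159982-14160041 (minus), and its bases 25 to 54 are shown. The repeat ran over 27 bases in the first and 34 bases in the second, and 239 of the 56605 probes (0.422%) held such a repeat of at least 12 bases.
Oprm1: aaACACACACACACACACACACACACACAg
Eya1: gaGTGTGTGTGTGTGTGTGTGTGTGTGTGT

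For these genes the next brightest probe, without such a repeat, was also detected on all 8 arrays. The scaled signal of the repeat-bearing Oprm1 probe was 6.18, 6.19, 6.20 and 6.07 in B6 mice and 6.12, 6.10, 6.00 and 6.06 in BTBR/R mice, while the next probe read -2.33, -2.60, -2.79 and -2.63 in B6 mice and -2.62, -2.49, -2.84 and -2.59 in BTBR/R mice. Neither Oprm1 probe passed the test, with changes of -0.09 and -0.05. The changes of the Eya1 probes were 0.12 with the repeat and -0.09 without it, and neither passed. Which transcripts bind to the repeat-bearing probes was not tested. With such probes left out, an alternative added after the data were seen, 4 members passed, Pde10a, Scn4b, Itpka and Strn.

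Most striatal genes had close to the same scaled signal in both strains. Of the 37 members, 4 passed an adjusted p of 0.05 (10.8%), 3 of them lower and 1 higher in BTBR/R mice. Over all probes 39.3% passed, over the brightest probe of every gene name 41.4%, and over those brightest probes that were detected on all 8 arrays 28.3%, with 14.4% lower and 13.9% higher. Pde10a, Scn4b and Itpka fell and Strn rose. A fall of at least 2-fold with an adjusted p below 0.05 was found for Pde10a alone, 1 of 37 members, where 22.4% of all probes and 2.22% of the brightest probes detected on all 8 arrays passed both limits in either direction, 1.18% of the latter as falls. The count over all probes, 12697, depended on the processing, with 563 past both limits after normexp correction and 2200 after quantile normalization. After spike-in scaling 0 members passed both limits, with Pde10a at -0.95. With the detected probe of lowest variance for each gene, 8 members passed an adjusted p of 0.05. No share over all genes is given for that probe choice, since the shares above are those of the brightest probes or of all probes. The median change of the 37 members was 0.02, beside 0.07 over all probes and 0.00 over the brightest probes detected on all 8 arrays. For 28 of the 37 members the 95% interval of the change lay within -0.5 and 0.5. The groups of 4 did not overlap for 5 members, the 4 named and Rasd2, while 45.2% of the brightest probes of all gene names, and 34.9% of those detected on all 8 arrays, did not overlap.

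**Figure D1:**
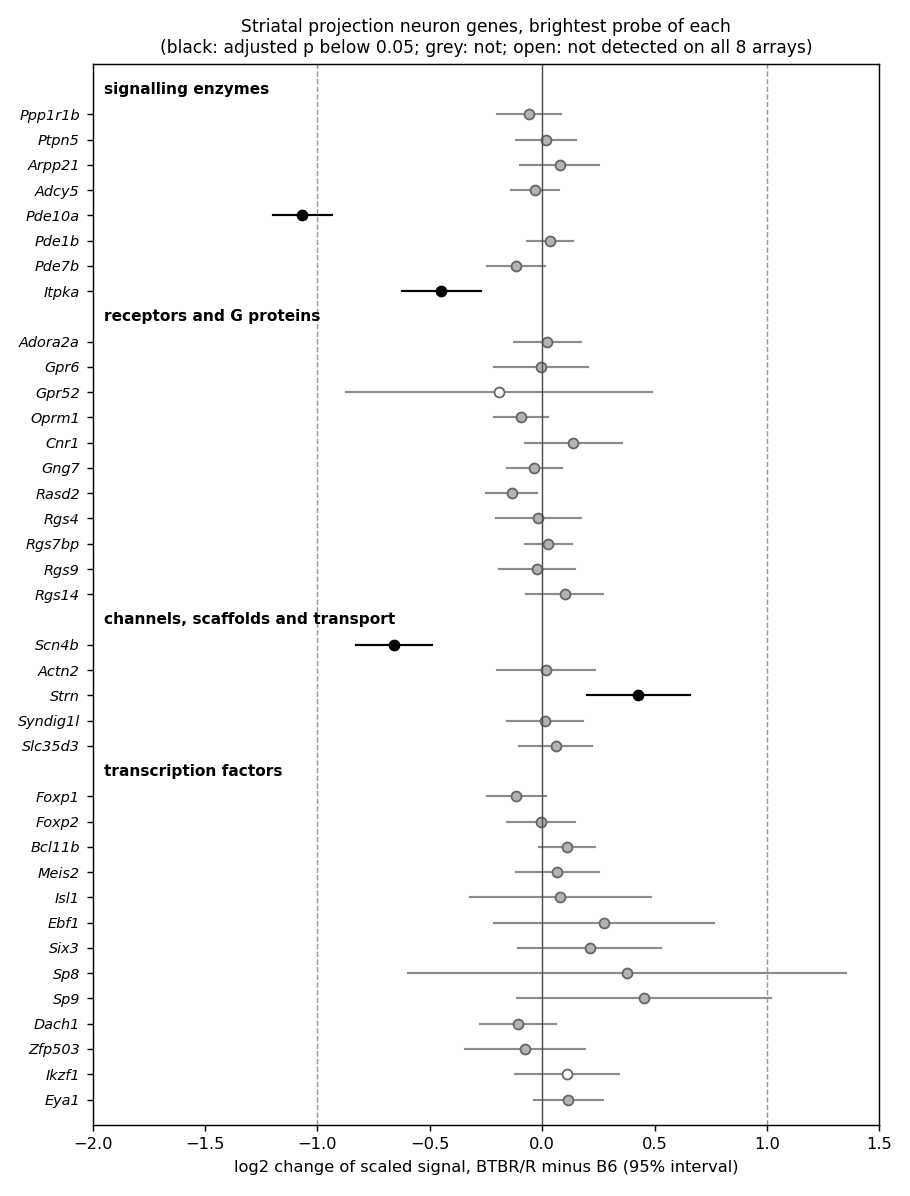
Change in scaled signal (log2, BTBR/R minus B6) of the brightest probe of each of the 37 genes, grouped by role, with the 95% interval as a line and the 2-fold limits as dashed lines. Pde10a at -1.07, Scn4b at -0.66 and Itpka at -0.45 lie left of 0 and Strn at 0.43 lies right of it, while the other 33 genes, in grey or open circles, did not pass the test.

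Among the 8 genes of signalling enzymes, 2 fell and 6 did not pass. Pde10a encodes the phosphodiesterase that breaks down cyclic AMP and cyclic GMP in striatal projection neurons. Its scaled signal was 3.87, 3.96, 3.92 and 3.90 in the B6 mice and 2.94, 2.76, 2.89 and 2.80 in the BTBR/R mice. Every BTBR/R mouse lay far below every B6 mouse, and the mice of a strain lay close together. The change was -1.07 (SE 0.06, adjusted p = 2.5e-05), a 2.09-fold lower signal, with a 95% interval of -1.20 to -0.94. The array carried 1 probe for this gene, so no second probe could be set beside it.

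Itpka encodes a kinase of inositol trisphosphate that also binds actin in dendritic spines. The B6 mice read 5.81, 5.91, 5.97 and 6.07 and the BTBR/R mice 5.44, 5.39, 5.53 and 5.60. The groups did not overlap, and the signal was 1.37-fold lower in BTBR/R mice (change -0.45, SE 0.08, adjusted p = 0.0024). This gene too had a single probe. It is also known from the cortex, which the sample held.

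The other enzymes of cyclic nucleotide and phosphatase signalling gave narrow intervals around 0. Ppp1r1b, the gene for DARPP-32, read 5.28, 5.34, 5.39 and 5.39 in B6 mice and 5.41, 5.18, 5.31 and 5.27 in BTBR/R mice. The strains overlapped, with the lowest and the highest value both in BTBR/R mice, and the change was -0.06 (95% interval -0.20 to 0.08). Adcy5, the main adenylyl cyclase of the striatum, had a change of -0.03 (interval -0.14 to 0.07), and Pde1b, a phosphodiesterase driven by calmodulin, one of 0.03 (interval -0.07 to 0.14). The change was 0.02 for Ptpn5, the phosphatase enriched in the striatum, 0.08 for Arpp21, a phosphoprotein regulated by cyclic AMP, and -0.12 for Pde7b, a further phosphodiesterase of cyclic AMP. For Ppp1r1b, a second probe whose 60 bases cross an intron was also measured. It lies between positions 98216810 and 98218184 of chromosome 11 (plus) and is shown whole, as a probe that reads spliced RNA.
Ppp1r1b: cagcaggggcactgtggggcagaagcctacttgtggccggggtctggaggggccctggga

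This splice-crossing probe gave a change of -0.12 that did not pass (adjusted p = 0.26). Both probes of Ppp1r1b therefore lacked a passing difference, and both read lowest in BTBR/R replicate 2, at 5.18 and 1.29.

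None of the 11 receptor and G protein genes passed, with changes from -0.19 to 0.14. Adora2a encodes the adenosine receptor of the indirect pathway and read 1.16, 1.27, 1.31 and 1.28 in B6 mice and 1.30, 1.28, 1.37 and 1.15 in BTBR/R mice. These ranges nearly coincided, and the change was 0.02 (95% interval -0.12 to 0.17). Rgs9, which speeds the switching off of G proteins behind dopamine and opioid receptors, read 4.86, 4.92, 4.97 and 4.93 in B6 mice and 5.03, 4.74, 4.97 and 4.85 in BTBR/R mice. Its change was -0.02 (interval -0.19 to 0.15), and the BTBR/R mice spread more widely around the B6 mice. Rgs7bp, which anchors proteins of the Rgs9 family at the membrane, had a change of 0.03, Rgs4 one of -0.02 and Rgs14 one of 0.10.

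Gng7 encodes the gamma subunit of the G protein that couples dopamine and adenosine receptors to adenylyl cyclase in these cells, and its change was -0.03 (interval -0.16 to 0.09). For the receptors, the change was -0.01 for Gpr6, 0.14 for Cnr1, the cannabinoid CB1 receptor, and -0.09 for Oprm1, the mu opioid receptor. Gpr52 had a change of -0.19 with a wide interval of -0.87 to 0.49, at signals that were not well above background on any BTBR/R array. Rasd2, a small GTP-binding protein of the striatum, read 4.33, 4.50, 4.45 and 4.43 in B6 mice and 4.29, 4.29, 4.31 and 4.28 in BTBR/R mice. Its groups did not overlap, but the change of -0.14 did not pass (SE 0.05, adjusted p = 0.062). Over the alternatives the change ran from -0.18 after normexp background correction (adjusted p = 0.024) to -0.02 after spike-in scaling (adjusted p = 0.84), and under 15 of 22 it did not pass.

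Of the 5 genes for channels, scaffolds and transport, 1 fell, 1 rose and 3 did not pass. Scn4b encodes a beta subunit of voltage-gated sodium channels. The B6 mice read 4.05, 4.26, 4.29 and 4.17 and the BTBR/R mice 3.56, 3.40, 3.59 and 3.57. The highest BTBR/R mouse lay below the lowest B6 mouse, and the signal was 1.58-fold lower (change -0.66, SE 0.07, adjusted p = 0.00021). The interval of the change, -0.83 to -0.49, stayed short of a 2-fold difference, and Scn4b had a single probe.

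Strn encodes striatin, a scaffold that binds calmodulin. It read -1.76, -1.83, -1.70 and -2.03 in B6 mice and -1.53, -1.23, -1.35 and -1.49 in BTBR/R mice. The BTBR/R mice were all higher, by 1.34-fold (change 0.43, SE 0.10, adjusted p = 0.011), also with a single probe. The change ran from 0.27 after normexp background correction to 0.54 after spike-in scaling and passed in both. The changes were 0.02 for Actn2, an alpha-actinin of dendritic spines, 0.01 for Syndig1l, a membrane protein enriched in the striatum, and 0.06 for Slc35d3, a member of a nucleotide sugar transporter family known from direct pathway neurons.

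**Figure D2:**
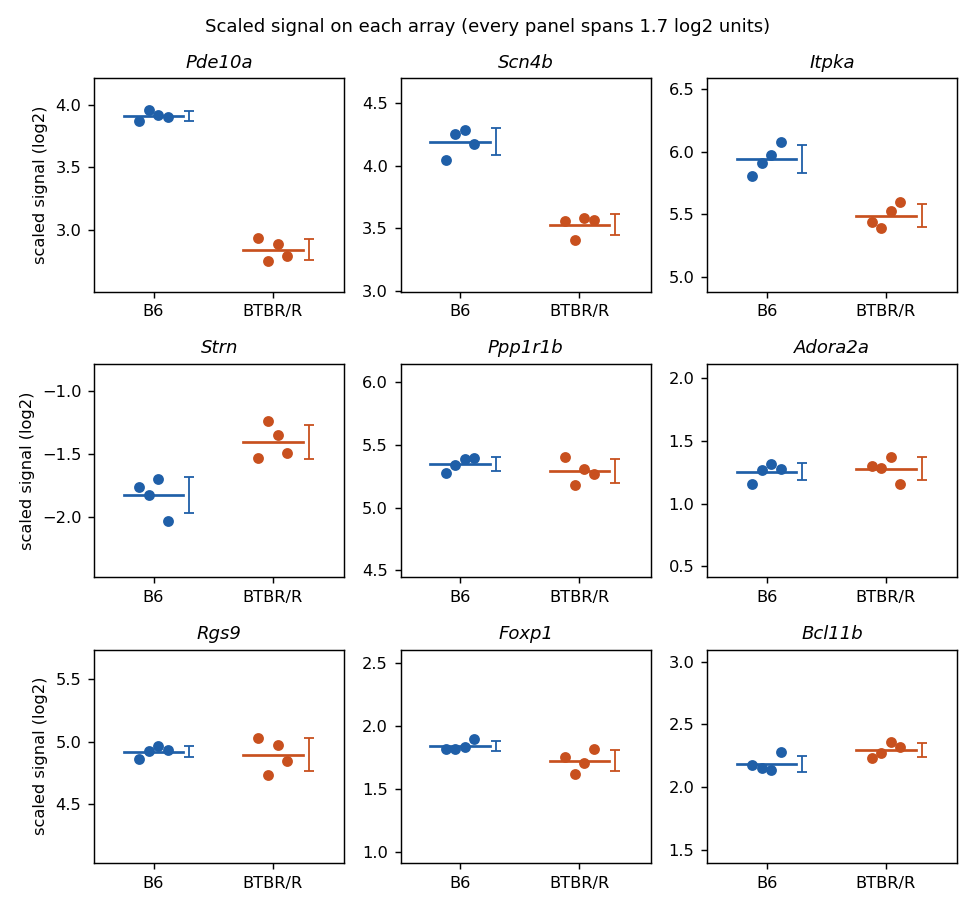
Scaled signal (log2) of 9 genes on each array, with 4 B6 mice in blue and 4 BTBR/R mice in orange. Horizontal lines are strain means and bars are 1 SD on each side, and all panels have the same height. The strains are separate for Pde10a, Scn4b, Itpka and Strn and overlap for Ppp1r1b, Adora2a, Rgs9, Foxp1 and Bcl11b.

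None of the 13 transcription factor genes passed, with changes from -0.12 to 0.45. Foxp1, a forkhead factor of striatal and cortical neurons, read 1.82, 1.82, 1.83 and 1.90 in B6 mice and 1.76, 1.62, 1.71 and 1.82 in BTBR/R mice. The change was -0.12 (95% interval -0.25 to 0.01), with the highest BTBR/R mouse level with the lower B6 mice. Bcl11b, also called Ctip2, read 2.17, 2.16, 2.13 and 2.28 in B6 mice and 2.23, 2.27, 2.36 and 2.32 in BTBR/R mice. Its change was 0.11 (interval -0.02 to 0.23), and the strains overlapped at 1 B6 mouse. The change was -0.01 for Foxp2, 0.07 for Meis2, -0.11 for Dach1, -0.08 for Zfp503, 0.11 for Ikzf1 and 0.12 for Eya1.

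The factors with the widest intervals were Sp8, Sp9, Ebf1, Isl1 and Six3. Sp9, needed for indirect pathway neurons, had a change of 0.45 with an interval of -0.11 to 1.02. Ebf1 and Isl1, factors of the direct pathway, had changes of 0.27 (interval -0.21 to 0.76) and 0.08 (interval -0.32 to 0.48). For Ebf1, BTBR/R replicate 3 stood apart at -0.80, while the other 3 BTBR/R mice read -1.83 to -1.56 and the B6 mice -1.80 to -1.64. Six3 had a change of 0.21 that did not pass, but passed without B6 replicate 1 (change 0.33, adjusted p = 0.046), where Rasd2 passed too.

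Sp8, a zinc finger factor of striatal and olfactory bulb interneuron lineages, had the largest spread between B6 mice of all 37 members. Its scaled signal was -0.58, -1.86, -1.80 and -0.37 in B6 mice and -1.25, -0.80, -0.15 and -0.90 in BTBR/R mice, and the change was 0.38 (interval -0.60 to 1.35, adjusted p = 0.51). B6 replicates 1 and 4 and BTBR/R replicate 3 were high, and B6 replicates 2 and 3 were low. The SD of the B6 mice was 0.79 for Sp8 and a median of 0.09 over the 37 members. This gene and the marker genes set beside it were singled out after their values were seen.

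The olfactory bulb markers Th, the enzyme that makes the dopamine precursor, and Eomes, a factor of glutamatergic bulb neurons, varied with Sp8. Th read 1.23, 0.14, 0.20 and 1.55 in B6 mice and 0.35, 0.83, 1.37 and 0.77 in BTBR/R mice. Eomes read -2.51, -4.90, -4.05 and -2.04 in B6 mice and -4.46, -2.76, -1.84 and -3.04 in BTBR/R mice, and was detected on 3 arrays of each strain. Within each strain, the mice stood in the same order for Sp8, Th and Eomes. Over the 8 mice, Pearson's r of Sp8 with Th was 0.96 and Spearman's rho 0.98. With Eomes, r was 0.94 and rho 0.98. These values are a description without a test, since the genes were picked with the values in view. Without the 2 mice farthest from the median of the marker, r was 0.96 for Th and 0.99 for Eomes.

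Dcx, Sox11 and Cd24a, the other markers on that list and genes of migrating young neurons, gave r with Sp8 of 0.34, -0.21 and 0.27 over the 8 mice. Within the strains, each with 4 mice, the values differed from the pooled ones. For B6 and BTBR/R mice in turn, r was 0.21 and 0.74 for Dcx, 0.64 and 0.37 for Sox11 and -0.52 and 0.83 for Cd24a, beside 0.997 and 0.99 for Th and 0.97 and 0.95 for Eomes. In the BTBR/R mice, all 5 markers lay above the strain mean in replicates 2 and 3, and 0 and 1 of them in replicates 1 and 4. By the brightest probe, 1 of the 5 markers passed between the strains, Sox11 with a change of -0.33 (adjusted p = 0.0016). That probe lies on the plus strand and the other Sox11 probes on the minus strand, and whether it reads the Sox11 mRNA was not tested. The minus-strand probes, both detected on all 8 arrays, had changes of -0.01, which did not pass, and -0.27 (adjusted p = 0.019). A second Dcx probe had a change of -0.42 (adjusted p = 0.0021), beside 0.01 for the brightest, while both Cd24a probes did not pass (0.15 and 0.09). The summed linear scaled signal of the list was 4.02 to 6.05 in B6 mice and 3.95 to 5.80 in BTBR/R mice. The homeobox gene Dlx1, one of the factors of forebrain inhibitory neurons, was likewise high in B6 replicates 1 and 4, at -0.74 and -0.62 against -1.30 and -1.25 in the other B6 mice. The part of olfactory bulb tissue in the Sp8 values was not tested.

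**Figure D3:**
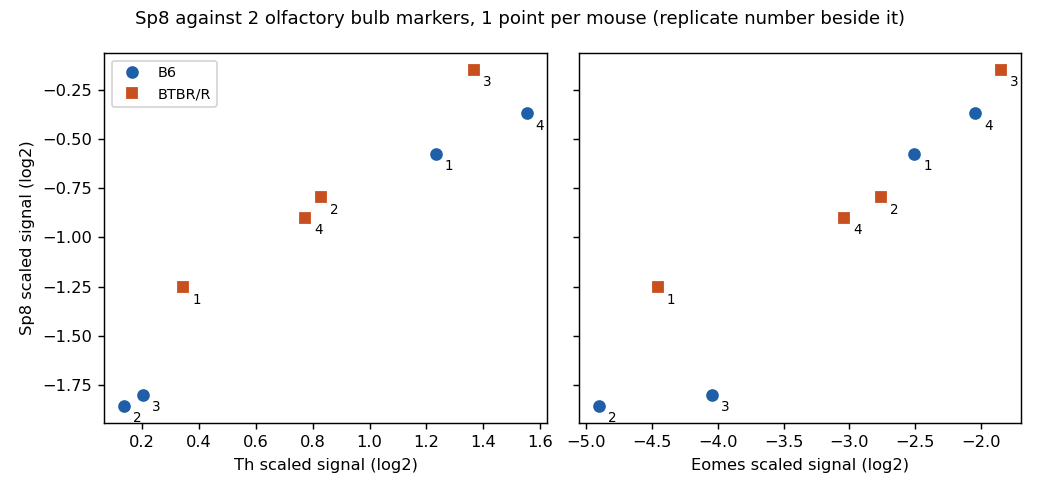
Scaled signal (log2) of Sp8 against that of Th (left) and Eomes (right), 1 point per mouse with its replicate number, blue circles for B6 and orange squares for BTBR/R. The mice fall in nearly the same order on each axis, and the strains overlap, with Sp8 from -1.86 to -0.37 in B6 mice and from -1.25 to -0.15 in BTBR/R mice.

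Probes of 1 gene did not always give the same change. Of the 90 probes, 67 were detected on all 8 arrays and 11 of these passed, 3 higher and 8 lower in BTBR/R mice, where 26.9% of all probes detected on all 8 arrays passed, 13% higher and 13.9% lower. Besides the 4 genes named, 7 genes had a second probe that passed while the brightest did not, namely Arpp21, Isl1, Meis2, Cnr1, Rgs9, Syndig1l and Bcl11b. These probes were picked for their p, so they are given as a description. In no gene did probes detected on all 8 arrays differ in change by 1 or more, and the widest range was 0.93, in Arpp21. For the 4 genes with the widest ranges, the first 30 bases of the brightest probe and of the passing probe are shown.
Arpp21, brightest: tagaaaatgtgtggactgactcccagagaa
Arpp21, other: aaccagtgagtcccaggtccccgtgagaga
Isl1, brightest: cccccaaagatgtgtatagttattggttaa
Isl1, other: atttcactgtggacattactccctcttaca
Meis2, brightest: ggactaagttaaacttgtacatttctgttg
Meis2, other: cagcacgtgttcctcactagaagaaaatgc
Cnr1, brightest: ctggtagcatcattgagactgctgtgatgt
Cnr1, other: tatctctctttcacaggaaaggtcaaagca

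For Arpp21 the brightest probe lies at chr9:112083795-112083854 (minus) and the other at chr9:112085544-112085603, 1749 bases upstream. The brightest read 4.32, 4.45, 4.46 and 4.42 in B6 mice and 4.54, 4.30, 4.54 and 4.58 in BTBR/R mice. The other read 2.50, 2.44, 2.29 and 2.31 in B6 mice and 1.55, 1.42, 1.61 and 1.56 in BTBR/R mice. The first pair of groups overlapped, while the second lay clearly apart, with a change of -0.85 (SE 0.07, adjusted p = 3.5e-05). The changes of the 3 remaining Arpp21 probes with detection in every mouse were -0.13 to 0.02 and did not pass, so 1 of 5 passed.

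For Meis2, which encodes a homeobox factor, the brightest probe lies at chr2:115689641-115689700 (minus) and the other at chr2:115688896-115688955, 745 bases downstream and listed under the same transcript. The brightest probe read 3.11 to 3.29 in B6 mice and 3.17 to 3.44 in BTBR/R mice. The other read 2.59, 2.57, 2.60 and 2.82 in B6 mice and 2.22, 2.07, 2.38 and 2.15 in BTBR/R mice, without overlap. The changes were 0.07 for the brightest and -0.44 for the other (SE 0.09, adjusted p = 0.0055), and the latter missed the threshold after spike-in scaling (adjusted p = 0.056). The other 3 Meis2 probes that every array detected had changes of -0.07, 0.21 and 0.25, which did not pass.

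For Isl1 the brightest probe lies at chr13:117088774-117088833 (minus) and the other at chr13:117099604-117099663, 10830 bases upstream. The brightest had a change of 0.08, and the other one of -0.66 (SE 0.20, adjusted p = 0.035). The other probe read -1.76, -2.34, -2.44 and -2.33 in B6 mice and -2.46, -3.02, -2.83 and -3.16 in BTBR/R mice, which was lower in every BTBR/R mouse by a narrow margin. This call was lost after normexp background correction (adjusted p = 0.081), with adjusted p from 0.0093 to 0.11 over the alternatives, and leaving out 1 mouse ended it except for B6 replicate 3 and BTBR/R replicate 1.

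For Cnr1 the brightest probe lies at chr4:34035526-34035585 (plus) and the other at chr4:34022232-34022291, 13294 bases upstream. The other probe read -0.69, -0.40, -0.50 and -0.74 in B6 mice and -0.12, 0.08, -0.03 and -0.09 in BTBR/R mice. It was higher in all 4 BTBR/R mice, with a change of 0.54 (SE 0.09, adjusted p = 0.0023), beside 0.14 for the brightest probe. The passing second probes of Rgs9, Syndig1l and Bcl11b changed less, by -0.16, -0.19 and 0.25, and the first and second of these calls were lost in part of the alternatives (adjusted p up to 0.64 and 0.53). In Rgs9, the brightest probe and the next one overlap by 54 bases and are not independent readings.

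Actn2 had a further probe, at chr13:12400548-12400607 (minus), that was detected on all 4 B6 arrays and not well above background on any BTBR/R array. It was at least 1.43-fold higher in B6 mice (adjusted p = 0.0026), a bound computed from the lowest detected signals of the BTBR/R mice. A further probe of Oprm1 and one of Ikzf1 passed as higher in BTBR/R mice (adjusted p = 0.025 and 0.042), but each was detected on 1 BTBR/R array alone and no B6 array. No fold is given for them, and neither passed after normexp background correction (adjusted p = 0.10 and 0.18). The probe of Actn2 that crosses an intron, between positions 12364990 and 12367362 of chromosome 13, is shown whole as the reading of spliced RNA.
Actn2: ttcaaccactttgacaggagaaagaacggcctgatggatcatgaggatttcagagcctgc

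That splice-crossing probe read -0.43, -0.36, -0.11 and -0.28 in B6 mice and -0.41, -0.50, -0.41 and -0.45 in BTBR/R mice, and its change of -0.15 did not pass (adjusted p = 0.16). Of the 9 member probes detected on no array, 5 passed, all 5 higher in BTBR/R mice, where the detection limits were higher too. Over all probes detected on no array 73.1% passed, 72.6% as higher in BTBR/R mice, so the share of the members is not above the background. The 5 probes belong to Oprm1, Foxp1, Foxp2 and Meis2 and are not read as levels.

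**Figure D4:**
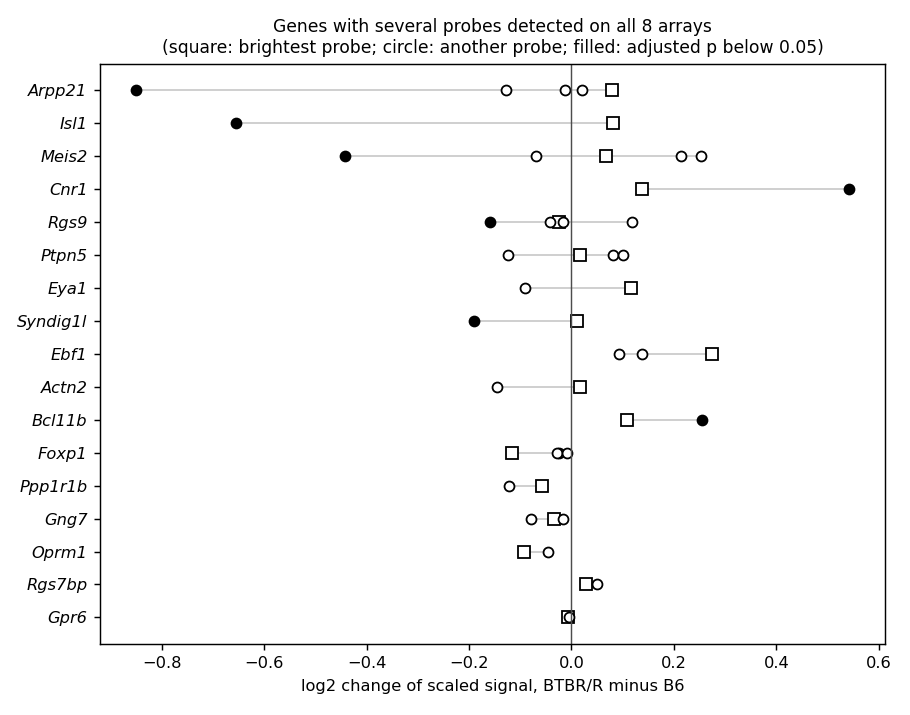
Change in scaled signal (log2, BTBR/R minus B6) of every probe detected on all 8 arrays, for the 17 genes with at least 2 such probes. Squares are brightest probes and circles other probes, filled where the adjusted p was below 0.05. Arpp21 spans the widest range, 0.93, and the brightest probe of each of the 17 genes is open.

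The other genes of the same pathways, 27 partners of these proteins, were measured in the same way. Of them, 4 passed (14.8%), all higher in BTBR/R mice, beside 41.4% of the brightest probes of all gene names and 28.3% of those detected on all 8 arrays. Kcnip2, a subunit that modulates potassium channels, had a change of 0.32 (SE 0.07, adjusted p = 0.0085). Prkaca, the catalytic subunit of cyclic AMP-dependent protein kinase, changed by 0.21 and Rasgrp2, an exchange factor for small GTP-binding proteins, by 0.17 (adjusted p = 0.016 and 0.043). Prkaca did not pass after scaling by the median of each array or with the replicate block (adjusted p = 0.071 and 0.067). Rasgrp2 did not pass when any mouse other than B6 replicate 1 was left out (adjusted p up to 0.11), although the change stayed at 0.14 to 0.20. Counting all alternatives, it did not pass under 11 of 22 (adjusted p up to 0.13). A second Rasgrp2 probe had a change of 0.22 (adjusted p = 0.012). The probe of the fourth, Gsx2, was not well above background on any array, and its change was 0.00051 after normexp background correction (adjusted p = 0.995).

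The receptors and peptides that define the pathways did not pass. The change was 0.02 for Drd1, -0.01 for Drd2, -0.03 for Penk, -0.02 for Pdyn and -0.00 for Tac1. Drd1 had a second probe with a passing change of -0.31 (adjusted p = 0.0031). Across the 6 indirect pathway genes (Adora2a, Gpr6, Gpr52, Sp9, Drd2 and Penk) changes ran from -0.19 to 0.45 with a median of -0.01. The lower end is that of Gpr52, detected on no BTBR/R array and with a change of -0.0011 after normexp background correction, and the next lowest was -0.03 for Penk. Across the 6 direct pathway genes (Isl1, Ebf1, Slc35d3, Drd1, Tac1 and Pdyn) they ran from -0.02 to 0.27 with a median of 0.04. No gene of either pathway passed by its brightest probe.

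The samples differed in other tissue more than in striatal genes. The median deviation of the 37 members from the mean of the 8 mice lay between -0.06 and 0.05 in every mouse. Their summed linear scaled signal was 452 to 482 in B6 mice and 420 to 446 in BTBR/R mice, without overlap. The 5 thalamus markers had median deviations of 1.40 in B6 replicate 1 and 0.34 in BTBR/R replicate 2, and of -0.41 to -0.24 in the other 6 mice. These same mice were the lowest in striatal genes, since 13 of 37 members lay above the strain mean in B6 replicate 1 and 8 of 37 in BTBR/R replicate 2. The part of thalamic tissue in the striatal values was not tested. With each of the 8 mice left out in turn, the change of Pde10a stayed between -1.10 and -1.04 and that of Scn4b between -0.71 and -0.62.

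The summed linear scaled signal of the thalamus list was 4.52 to 15.6 in B6 mice and 4.48 to 8.21 in BTBR/R mice, and that of the choroid plexus list 2.999 to 41.6 and 6.60 to 26.0. None of the 5 genes of either list passed. The summed signal of the microglia list was 41.6 to 43.5 in B6 mice and 35.9 to 39.7 in BTBR/R mice, without overlap. Those of the other marker lists overlapped between the strains. Markers of other cells are counted by their brightest probe, beside the 28.3% of all such probes with detection in every mouse that passed. Of the 9 markers of cortical excitatory neurons, 3 rose (Neurod2, Fezf2 and Slc30a3) and 1 fell (Rorb). Slc17a7, Tbr1, Cux2, Neurod6 and Emx1 did not pass, with changes of 0.03, 0.02, 0.12, 0.23 and -0.16. The other Cux2 probes, with detection in every mouse, passed as higher, by 0.30 and 0.39 (adjusted p = 0.022 and 0.0022). After normexp correction Neurod2 and Fezf2 did not pass (adjusted p = 0.053 and 0.054), nor did the interneuron call, Vip (adjusted p = 0.056). Among the remaining lists, 1 of 7 interneuron, 2 of 4 hippocampus, 2 of 4 oligodendrocyte and 2 of 4 astrocyte markers passed. These calls were all lower in BTBR/R mice, while of 4 microglia markers 2 were lower and 1 higher. Of the interneuron probes that did not pass, that of Lhx6 holds a 2-base repeat of 29 bases. The Nkx2-1 probe was not well above background on any BTBR/R array. Tdo2, one of the hippocampus calls, was not well above background on any BTBR/R array and did not pass after normexp correction (change 0.05, adjusted p = 0.45). Probes of 1 marker could differ in direction, since Cx3cr1, a microglial chemokine receptor, changed by -0.71 with its brightest probe and by 1.71 with a second (adjusted p = 8.7e-05 and 7.6e-07). Mbp, a myelin protein, did not pass with its brightest probe (change -0.07) and rose by 0.48 with another (adjusted p = 0.0014). The part of these cells in the changes of Pde10a, Scn4b, Itpka and Strn was not tested.

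**Figure D5:**
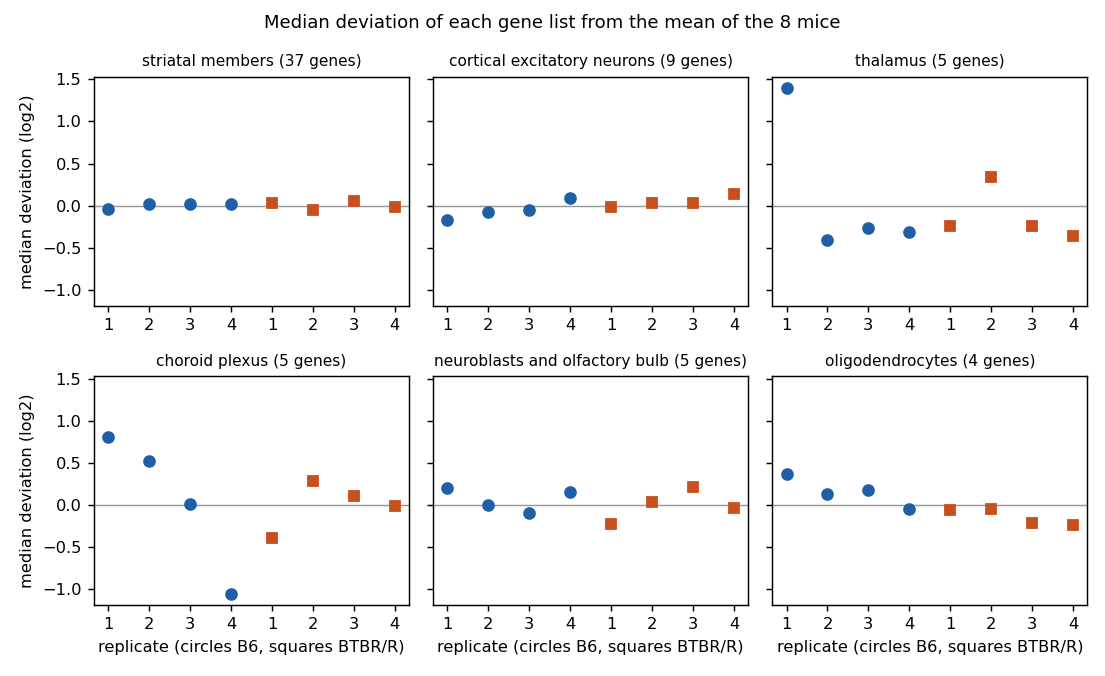
Median deviation (log2) of 6 gene lists from the mean of the 8 mice, 1 point per mouse, blue circles for B6 replicates 1 to 4 and orange squares for BTBR/R replicates 1 to 4. Striatal members stay between -0.06 and 0.05, while the thalamus list reaches 1.40 in B6 replicate 1 and the choroid plexus list falls to -1.06 in B6 replicate 4.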

How the data were processed

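Total RNA of 8 mice was measured on Agilent 1-colour arrays. The authors deposited Feature Extraction (10.7.3.1) intensities of every spot, background subtracted and detrended in the processed signal, and log2 values scaled by array. Flags for controls, outliers and detection, also deposited, are codes and not measurements. Control spots and 36 to 52 outlier spots per array were left out, spots of a probe were averaged on the log2 scale, and the 75th percentile of each array was subtracted. Strains were compared with limma 3.58.1 in R 4.3.3 over 56605 probes, with samples grouped by the labels. All mice are separate animals, and their number limits the precision. Simulated data had 56605 probes, 200 of them changed. There, 90 of 100 probes changed by 1 and 53 of 100 changed by 0.5 (log2) were recovered, with 9 false calls. In the measured data 22234 probes passed, so the cutoff in p differed and these rates do not describe the comparison of the strains.

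Members and lists were chosen with earlier results of these data known. Values on every array were given for members passing with a change of at least 0.5, for Ppp1r1b, Pde10a, Adora2a, Rgs9, Foxp1 and Bcl11b, and for members whose detected probes differ by 1 or more (none did). Others were added after seeing values. All 37 symbols were found in RefSeq, and 57 of 60 member probes with a RefSeq accession matched, all with the same symbol. Tables and plots were made with Python 3.11.15. Alternatives were another background correction, scaling, filter, test, probe per gene, a block, and leaving out each mouse. A further marker gene and a further probe sequence were left out and are not reported here.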

Additional observations from a re-analysis of the deposited data

Results flagged for a closer look

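In 4 of 74 sets of 4 mice (37 members in 2 strains), 1 mouse stood far from the other 3, and chance gives about 1 in 20, or 3.7. In 3 of them this was BTBR/R replicate 2, the mouse with the lowest striatal values of its strain. It read 4.30 for Arpp21, where the others read 4.54 to 4.58, 3.72 for Rgs7bp, where they read 3.76 to 3.77, and 3.40 for Scn4b, where they read 3.56 to 3.59. In B6 replicate 4, Oprm1 read 6.07 by its repeat-bearing probe, where the other B6 mice read 6.18 to 6.20.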

How the results depend on the processing

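Pde10a, Scn4b, Itpka and Strn kept direction and an adjusted p below 0.05 under all 22 alternatives. Each has a single probe without a long repeat, so the alternatives that choose another probe could not change these calls. Strn ran from 0.27 to 0.54, and Itpka from -0.49 to -0.34 with an adjusted p of up to 0.048. Leaving out 1 mouse gave 4 to 6 members passing, always 1 at 2-fold, a median change of -0.01 to 0.03, and 2 to 3 passing partners. Over all probes, 18980 to 21074 then passed an adjusted p of 0.05. Taking the detected probe with the lowest variance gave 8 passing members, a count without a share over all genes beside it. Arpp21 was then at -0.85, Syndig1l at -0.19 and, among partners, Drd1 at -0.31, all opposite in sign to the brightest probe. Scaling by spike-in probes moved the median of all probes from 0.07 to 0.19 and that of the members to 0.13, and left 0 members at 2-fold, with Pde10a at -0.95. By this scaling 4 members passed at an adjusted p of 0.05, beside 22399 of 56605 probes. Scaling by the 75th percentile of detected probes gave 2 passing partners, a floor at the highest detection limit 2, and the median of each array 1. Quantile normalization gave -0.46 for Gsx2. Over all probes 22234 passed, but 12105 after normexp correction and 14512 after quantile normalization, while 5 and 4 members passed. The methods' t-test called 5 members by adjusted p and 1 also at 2-fold, beside 21367 and 11777 of 56605 probes. Replicate numbers did not pair the mice (r of deviations -0.07 to 0.16). With them as a block 4 members and 1 partner passed, beside 18060 of 56605 probes. The causes of these shifts were not tested. Dim probes are limited by signal over background, which differed between strains.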
